A study of Mus musculus with 6 samples.

Results

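The carbonic anhydrases of the colon were examined in RNA-seq of mouse intestinal epithelial cells (IECs). The 10 members, Car1, Car2, Car3, Car4, Car7, Car8, Car9, Car12, Car13 and Car14, were taken by gene symbol from a table of 55487 genes, in which each symbol had 1 row. The cells came from the colon of mice given 2% dextran sodium sulphate (DSS) in the drinking water, which injures the colonic epithelium. The 3 control libraries, named WT in the sample labels, are of Nsd2 f/f genotype, with floxed Nsd2 alleles. The other 3 libraries, named NSD2-FF-VILCRE, are of Nsd2 Vil-KO genotype, with the same alleles plus Villin-Cre, a recombinase active in intestinal epithelium. NSD2 is the methyltransferase that places the H3K36me2 mark on histones. Both genotypes were floxed and both received DSS, so the contrast is between Cre and no Cre in injured colon, and non-epithelial cells in a sample keep Nsd2. The study's methods give an age of 2 months at the start of DSS and a colitis protocol of 5 days of DSS. The day on which the cells for these libraries were taken, and whether each library came from a separate animal, are not given in the sources used here, so p-values measure the spread between these 6 libraries.

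Carbonic anhydrases convert carbon dioxide and water to bicarbonate and a proton. In the colon this supplies the apical exchangers that take up sodium chloride in return for protons and bicarbonate, and the cytosolic and apical isozymes are found mostly in mature colonocytes near the surface. Other isozymes face the extracellular side of the membrane, where Car9 and Car12 are known as genes induced by hypoxia, and a few, such as Car8, have lost catalytic activity.

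The libraries held between 15439123 and 20350539 counted reads, and a count of 3 in a library corresponded to between 0.146 and 0.242 CPM, the counts divided by the TMM-scaled library size (CPM). Nsd2 itself had 24.6 to 51.2 CPM in the Nsd2 f/f libraries and 10.4 to 24.2 CPM in the Nsd2 Vil-KO libraries, and Nsd2 f/f replicate 3, at 24.6 CPM, was close to Nsd2 Vil-KO replicate 1, at 24.2 CPM. An exchange of labels involving that library cannot be checked from these counts, so each genotype difference given here takes the labels as they stand. On these labels the log2 fold change of Nsd2, Nsd2 Vil-KO over Nsd2 f/f, was −1.16 (standard error 0.39). Its p was 0.0217 and its adjusted p 0.992 by edgeR's quasi-likelihood test. Nsd2 f/f replicate 3 and Nsd2 Vil-KO replicate 2 stood apart from the others, with a mean Spearman correlation over genes of 0.937 and 0.927 with the other libraries against 0.959 to 0.964 for the remaining 4. These were also the libraries with Xist transcripts (347 and 204 CPM, against at most 0.255 CPM elsewhere), and mitochondrial genes took 19.6% of the counts in Nsd2 f/f replicate 3 against 5.51% to 9.13% in the other 5. Between the libraries with Xist, Nsd2 was at 24.6 CPM in Nsd2 f/f and 10.4 CPM in Nsd2 Vil-KO. Among those without it, Nsd2 was at 47.9 and 51.2 CPM against 24.2 and 20.8 CPM. The epithelial markers Epcam and Krt8 were at 2023 to 2786 CPM and 3328 to 6346 CPM.

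No tested carbonic anhydrase passed the test between genotypes. The largest differences in the estimates, Nsd2 Vil-KO over Nsd2 f/f on the log2 scale, were 0.96 for Car8 and 0.88 for Car12 on the higher side and −0.71 for Car4 and −0.65 for Car1 on the lower side, each with a 95% interval that included 0. Of the 10 members, 9 passed the filter on low counts and were tested with edgeR's quasi-likelihood test, and 0 passed the screening criterion, a fold change above 1.2 with a p below 0.05. The study's results give this criterion and its methods an adjusted p, and here the p of the criterion was taken as unadjusted and the adjusted p was counted separately. Of all 14650 genes tested, 482 passed it, which is 3.29%, with 241 (1.65%) in each direction. At a Benjamini-Hochberg adjusted p below 0.05 the count was 0 (0%) of all genes with edgeR and 4 with DESeq2, and the adjusted p of the tested members lay between 0.992 and 0.999 with edgeR. Of the 9 tested members, 5 were on the higher side in Nsd2 Vil-KO, with a median log2 fold change of 0.015 against 0.001 over all genes. In 1 of the 9, Car12, the libraries of the genotypes did not overlap, against 9.9% of all genes (5.21% higher and 4.7% lower in Nsd2 Vil-KO). In bulk RNA, fewer cells of a type and less RNA per cell cannot be told apart.

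**Figure D1:**
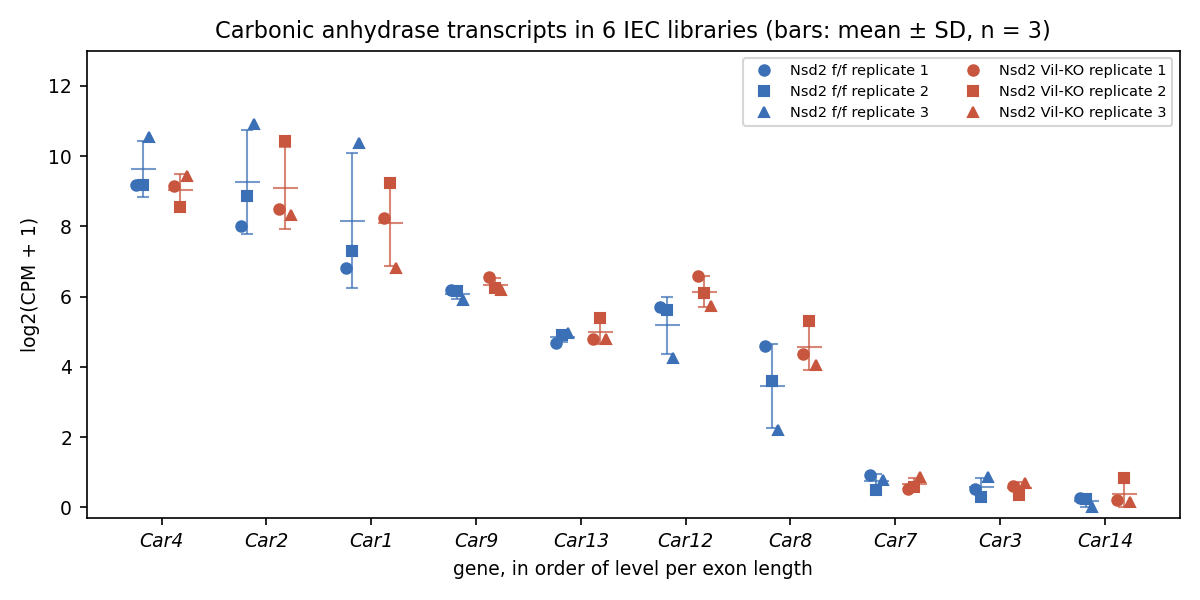
Level of each carbonic anhydrase in each library as log2(CPM + 1), with blue symbols for Nsd2 f/f and red for Nsd2 Vil-KO, a symbol shape for each replicate number, and bars for the mean ± SD (n = 3 per genotype). Car1 and Car2 spread most widely within each genotype among the members of high level, Car9 and Car13 least, and Car12 alone among the tested members shows no overlap between genotypes.

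Car1 and Car2, the main cytosolic isozymes of colonocytes, varied more within a genotype than between genotypes. Car1 had 112, 158 and 1317 CPM in Nsd2 f/f, in the order of replicates 1 to 3, which holds for every list of 3 values given here, and 301, 599 and 112 CPM in Nsd2 Vil-KO. The highest library was Nsd2 f/f replicate 3, 11.8-fold above the lowest, Nsd2 f/f replicate 1 and Nsd2 Vil-KO replicate 3, and the genotypes overlapped over most of that range. Its log2 fold change, Nsd2 Vil-KO over Nsd2 f/f, was −0.65 (standard error 1.00, edgeR p = 0.537, exact permutation p = 1). Car2 had 257, 465 and 1928 CPM in Nsd2 f/f and 358, 1390 and 322 CPM in Nsd2 Vil-KO. As with Car1, Nsd2 f/f replicate 3 was highest and Nsd2 Vil-KO replicate 2 second. The log2 fold change of Car2 was −0.36 (standard error 0.86, edgeR p = 0.69, exact permutation p = 0.8). The 95% intervals ran from −3.01 to 1.71 for Car1 and from −2.39 to 1.67 for Car2, so changes of several fold in either direction lay within them. Without Nsd2 f/f replicate 3 alone, with Nsd2 Vil-KO replicate 2 still in the fit, both directions reversed. The log2 fold changes were then 1.33 for Car1 and 0.94 for Car2. With Xist presence as a covariate they were 0.046 and −0.22.

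The other cytosolic members were lower and steadier, or near the detection limit. Car13, a cytosolic isozyme of many tissues, had 24.8, 28.8 and 30.3 CPM in Nsd2 f/f and 27.0, 40.8 and 26.7 CPM in Nsd2 Vil-KO. The genotypes overlapped and a single library, Nsd2 Vil-KO replicate 2, lay above the rest. Car13 differed by 0.17 on the log2 scale (standard error 0.23, exact permutation p = 0.7). Car13, Car1, Car3 and Car2 lie in this order within 1 cluster on chromosome 3 of GRCm38, from 14641727 to 14900770. Car3, abundant in muscle and fat, lies between Car1 and Car2 in this cluster but had only 4 to 12 counts per library. Car7, best known from brain, had 7 to 18 counts per library. Their log2 fold changes were 0.015 (standard error 0.61) and −0.22 (standard error 0.53), with exact permutation p = 1 and p = 0.8.

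Car4, the enzyme anchored to the outer face of the apical membrane beside the bicarbonate exchangers, had 575, 578 and 1499 CPM in Nsd2 f/f and 565, 373 and 685 CPM in Nsd2 Vil-KO. Nsd2 f/f replicate 3 was again the highest library, but Nsd2 Vil-KO replicate 2, where Car1 and Car2 were high, had the lowest Car4. The log2 fold change was −0.71 (standard error 0.45, 95% interval −1.77 to 0.35, edgeR p = 0.159, exact permutation p = 0.4). Without Nsd2 f/f replicate 3 it was −0.089, and with Xist presence as a covariate −0.56. Car4 lies on chromosome 11 of GRCm38 from 84957786 to 84966044.

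Car9 and Car12 are transmembrane enzymes with an extracellular catalytic domain, on chromosome 4 from 43506966 to 43513729 and on chromosome 9 from 66713686 to 66766845. Car9 had 72.1, 69.8 and 59.1 CPM in Nsd2 f/f and 93.3, 75.0 and 71.2 CPM in Nsd2 Vil-KO. These values overlapped only by Nsd2 f/f replicate 1 standing just above Nsd2 Vil-KO replicate 3, and the whole range was 1.58-fold, the narrowest of the members. The log2 fold change of Car9 was 0.25 (standard error 0.18, 95% interval −0.18 to 0.68, edgeR p = 0.206, exact permutation p = 0.2). Its exons share 214 bases with those of the antisense gene Gm12454, which had 847 counts over the 6 libraries, and the use of strand in the counting is not given in the sources used here.

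Car12 had 51.1, 47.6 and 17.9 CPM in Nsd2 f/f, a mean of 38.9 ± 18.2 (SD, n = 3), and 95.7, 67.3 and 52.1 CPM in Nsd2 Vil-KO, a mean of 71.7 ± 22.1 (SD, n = 3). Each Nsd2 Vil-KO library was above each Nsd2 f/f library, though Nsd2 Vil-KO replicate 3 exceeded Nsd2 f/f replicate 1 only slightly. The log2 fold change was 0.88 (standard error 0.42, 95% interval −0.10 to 1.86, edgeR p = 0.0712), and the exact permutation test gave p = 0.1, the smallest that 3 libraries against 3 allow. Within the libraries with Xist, Car12 was at 67.3 CPM in Nsd2 Vil-KO and 17.9 CPM in Nsd2 f/f, and within those without it at 95.7 and 52.1 CPM against 51.1 and 47.6 CPM. With Xist presence as a covariate the log2 fold change was 1.01 and passed the screening criterion (adjusted p = 0.627, edgeR), and without both of these libraries it was 0.60 and did not (adjusted p = 0.565, edgeR). Without Nsd2 f/f replicate 3 alone, its lowest library, it was 0.54. Car14, a transmembrane enzyme like Car12, had 4, 3 and 0 counts in Nsd2 f/f and 3, 14 and 2 counts in Nsd2 Vil-KO and was not tested. It shares 445 exon bases with Aph1a on the opposite strand, which had 14692 counts.

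**Figure D2:**
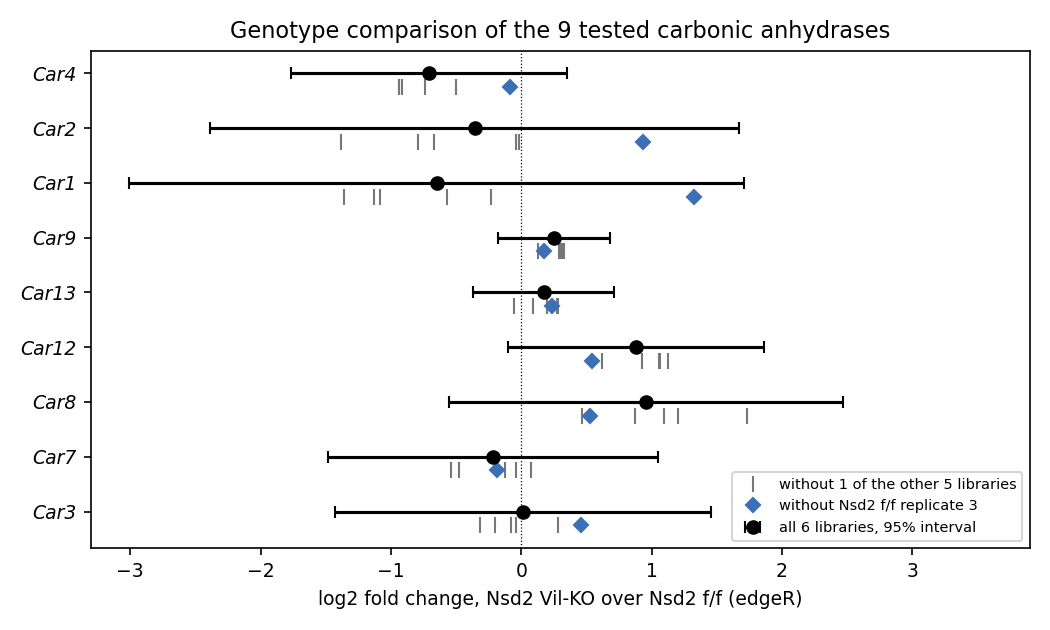
Log2 fold change of the 9 tested members, Nsd2 Vil-KO over Nsd2 f/f, with black points and bars for the fit on all 6 libraries and its 95% interval, a blue diamond for the fit without Nsd2 f/f replicate 3, and grey ticks for the fits without 1 of the other 5 libraries. Every interval includes 0, and the diamonds of Car1 and Car2, at 1.33 and 0.94, lie on the other side of 0 from their black points.

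The starts of Car9 and Car12 are shown because hypoxia acts on such genes through a short core to which hypoxia-inducible factors bind. Only the form ACGTG was searched, so other forms of the core are not counted here. Each line gives the 250 bases before the RefSeq start on GRCm38.p6, read 5′ to 3′ on the plus strand, from chr4:43506776-43507025 for Car9 and chr9:66713436-66713685 for Car12, with ACGTG or its reverse complement CACGT in capitals.
Car9: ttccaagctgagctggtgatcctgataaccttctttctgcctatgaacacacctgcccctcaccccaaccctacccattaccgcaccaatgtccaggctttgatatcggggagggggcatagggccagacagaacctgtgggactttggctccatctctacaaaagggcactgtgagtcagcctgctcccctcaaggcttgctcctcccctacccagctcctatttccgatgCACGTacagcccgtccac
Car12: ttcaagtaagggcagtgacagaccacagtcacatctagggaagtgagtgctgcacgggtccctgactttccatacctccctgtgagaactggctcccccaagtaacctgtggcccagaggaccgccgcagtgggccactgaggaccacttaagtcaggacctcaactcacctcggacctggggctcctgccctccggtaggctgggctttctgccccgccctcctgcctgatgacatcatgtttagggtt
Car9 had 1 match, as CACGT, ending 14 bases before the RefSeq start, and Car12 had 0 in this window. The GENCODE locus of Car9 given above begins at 43506966, inside its window. The match thus lies before the RefSeq start but within the GENCODE locus. The same search found 1 match for Car14, 3 bases before its RefSeq start, and 0 for Car4. The letters occurred on either strand in 16.6% of 32851 such windows of all genes, so a match is a description and not a site in use. RefSeq windows were found for 5 of the 10 members, and those of Car1, Car2, Car3, Car8 and Car13 were not among them. The window of Car7 was not searched. Of the 16 other hypoxia-induced genes listed, 0 passed the screening criterion, 8 were higher in Nsd2 Vil-KO and the median log2 fold change was 0.04. Egln3, a prolyl hydroxylase that marks HIF for destruction, was the 1 gene of the 16 without overlap, against 9.9% of all genes. Egln3 had 92.8, 81.5 and 93.7 CPM in Nsd2 f/f and 95.3, 284 and 124 CPM in Nsd2 Vil-KO (log2 fold change 0.91, exact permutation p = 0.1). Vegfa, an angiogenic growth factor, had a log2 fold change of 0.34, and P4ha1 and Ankrd37, of the same list, had −1.11 and −0.96.

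Car8 encodes a protein without carbonic anhydrase activity that binds the inositol trisphosphate receptor. It had 23.0, 11.1 and 3.56 CPM in Nsd2 f/f and 19.6, 38.6 and 15.5 CPM in Nsd2 Vil-KO, 10.9-fold from the lowest to the highest library. Nsd2 f/f replicate 3 was lowest and Nsd2 Vil-KO replicate 2 highest, and Nsd2 f/f replicate 1 stood above the other 2 Nsd2 Vil-KO libraries. The log2 fold change was 0.96 (standard error 0.64, edgeR p = 0.179, exact permutation p = 0.3). Without Nsd2 f/f replicate 1 it was 1.73 and passed the screening criterion (adjusted p = 0.999, edgeR), whereas without both libraries that stood apart it was 0.042.

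To compare levels between genes, CPM were divided by exon length in kilobases to give FPKM. By mean log2 level the order was Car4, Car2, Car1, Car9, Car13, Car12, Car8, Car7, Car3 and Car14. The first 3, with medians of 293, 170 and 184 FPKM, exchanged places between libraries, and neighbours among them did not differ beyond their spread (exact sign-flip permutation p = 0.438 and 0.688). Car9 was the fourth in 6 of 6 libraries, with a median of 31.1 FPKM. Car1 exceeded Car9, Car9 exceeded Car13 and Car8 exceeded Car7 in 6 of 6 libraries, each with p = 0.0312, the smallest that 6 libraries allow, and an adjusted p of 0.0938 over the 9 neighbouring pairs (exact sign-flip permutation test, two-sided). The remaining pairs of neighbours had p between 0.0625 and 0.688 by the same exact test. Car13, Car12 and Car8 had medians of 12.1, 6.79 and 4.55 FPKM, and Car7, Car3 and Car14 were at most 0.305 FPKM in every library.

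Car1, Car2 and Car4 together made up 89.8% to 98.4% of the summed FPKM of the members. The sum was 543, 664 and 2656 FPKM in Nsd2 f/f and 747, 1313 and 625 FPKM in Nsd2 Vil-KO (exact permutation p = 0.9), highest in Nsd2 f/f replicate 3 and next in Nsd2 Vil-KO replicate 2. Car4 gave 53.8%, 44.2% and 28.7% of it in Nsd2 f/f and 38.5%, 14.5% and 55.8% in Nsd2 Vil-KO (exact permutation p = 0.7). Its share was lowest in Nsd2 Vil-KO replicate 2, where Car2 gave 43.7% and Car1 36.5%. The cytosolic members gave 38.1%, 49.8% and 70.2% in Nsd2 f/f and 53.7%, 81.6% and 37.5% in Nsd2 Vil-KO (exact permutation p = 0.8). The ratio of Car1 to Car4 therefore ran from 0.257 in Nsd2 Vil-KO replicate 3 to 2.53 in Nsd2 Vil-KO replicate 2. Of the 4 ratios between members that were computed, only that of Car9 to Car12 did not overlap, at 4.65, 4.83 and 10.9 in Nsd2 f/f and 3.22, 3.67 and 4.51 in Nsd2 Vil-KO (exact permutation p = 0.1). The nearest values, 4.65 and 4.51, were close, and of all genes 9.9% did not overlap. Car12 did not overlap by itself, so this ratio is not a separate observation.

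**Figure D3:**
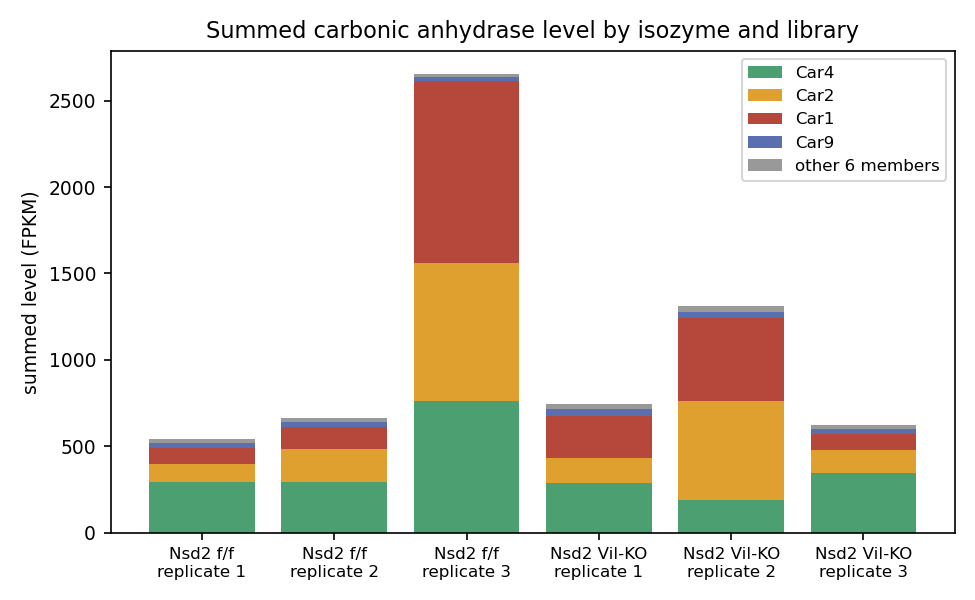
Summed level of the 10 members in each library in FPKM, stacked by isozyme. The bars reach 2656 FPKM in Nsd2 f/f replicate 3 and 1313 FPKM in Nsd2 Vil-KO replicate 2 and lie between 543 and 747 FPKM in the other 4 libraries, and Car4, Car2 and Car1 fill nearly all of each bar.

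The libraries with Xist, 1 in each genotype, were set beside the other 2 of their genotype, as a description without a test. Car1 was 9.78-fold as high in the Nsd2 f/f library and 2.9-fold in the Nsd2 Vil-KO library, and Car2 was 5.34-fold and 4.09-fold. They were 2 of the 9 tested members at least 1 higher on log2(CPM + 1) in both genotypes, against 1.09% of all genes, and 0 were at least 1 lower in both, against 3.2%. Car4 stood on opposite sides in the genotypes, at 2.6-fold in Nsd2 f/f and 0.597-fold in Nsd2 Vil-KO, and so did Car8, at 0.209-fold and 2.2-fold. Car12 was at 0.363-fold and 0.911-fold, and Car9 at 0.832-fold and 0.911-fold.

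Markers of the surface colonocyte did not all follow Car1 and Car2. Of the 21 surface markers, 2 were at least 1 higher in both Xist libraries, against 1.09% of all genes. They were Guca2a and Guca2b, which encode guanylin and uroguanylin. Clca4a was at least 1 lower in both, against 3.2% of all genes. On log2(CPM + 1) the median surface marker stood 0.694 above the other 2 libraries in Nsd2 f/f. In Nsd2 Vil-KO its difference was −0.366. The summed surface marker CPM were 21420, 26720 and 36660 in Nsd2 f/f and 23820, 23820 and 21940 in Nsd2 Vil-KO. Lypd8, a secreted antibacterial protein, was the largest single part of these sums, with 9683, 13280 and 21620 CPM in Nsd2 f/f and 9489, 13590 and 8823 CPM in Nsd2 Vil-KO. Slc26a3, the chloride and bicarbonate exchanger of the surface, and Aqp8, a water channel of the same cells, followed Car4 instead, with 1424 and 973 CPM in Nsd2 f/f replicate 3 and 229 and 27.9 CPM in Nsd2 Vil-KO replicate 2. Of the 14 crypt base and progenitor markers, 5 were at least 1 lower in both Xist libraries, against 3.2% of all genes, and 0 at least 1 higher. Mki67, a marker of cycling cells, was among the 5. Reg4, Sox9 and Slc12a2 stood on opposite sides in the genotypes. They were at 2-fold, 0.555-fold and 0.696-fold in Nsd2 f/f and 0.505-fold, 1.52-fold and 1.25-fold in Nsd2 Vil-KO. The summed CPM of the 14 markers, 1408 and 1071 in the Xist libraries, were the lowest of their genotypes. The part of the crypt markers and of mitochondrial reads in the levels of Car1 and Car2 was not tested.

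**Figure D4:**
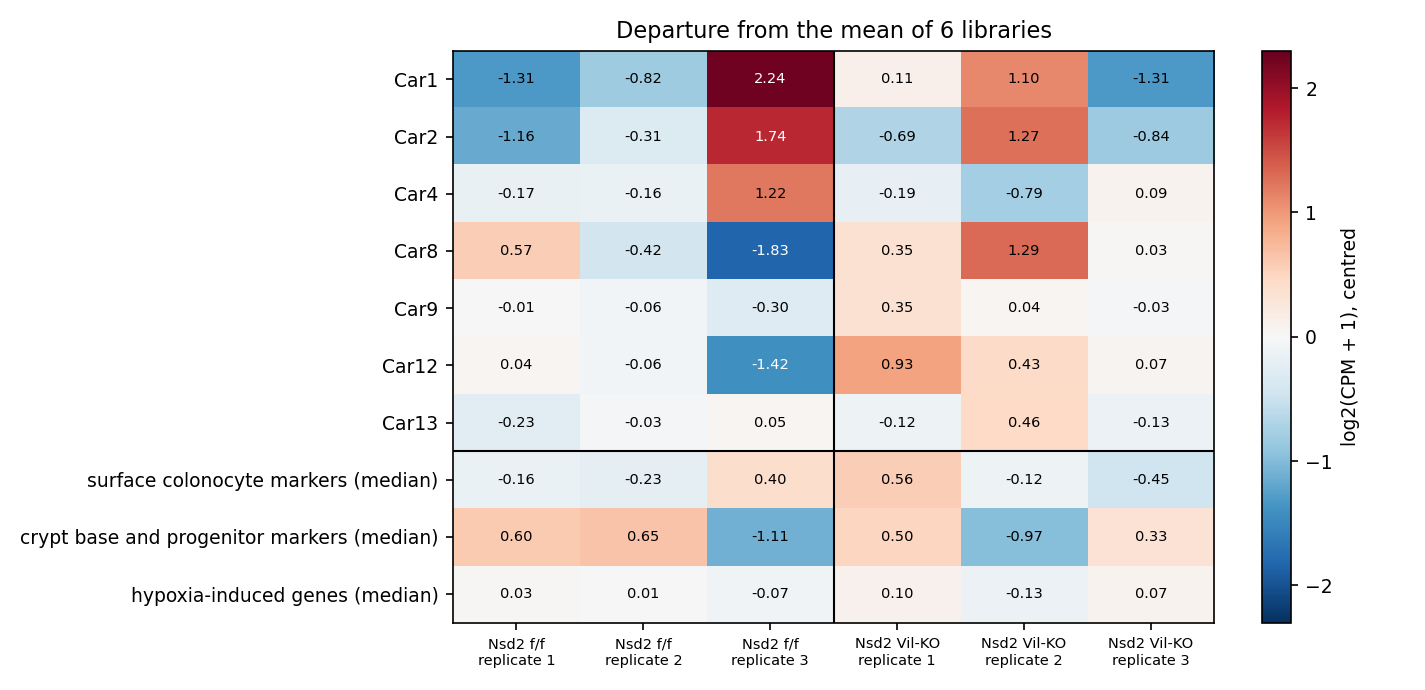
Departure of each member of at least moderate level, and of the median of 3 marker lists, from its own mean over the 6 libraries, on log2(CPM + 1), red for higher and blue for lower, with Nsd2 f/f left and Nsd2 Vil-KO right of the line. Car1 and Car2 are above their means in Nsd2 f/f replicate 3 (2.24 and 1.74) and Nsd2 Vil-KO replicate 2 (1.10 and 1.27), where the crypt markers are below theirs (−1.11 and −0.97). The surface markers are above their mean in Nsd2 f/f replicate 3 (0.40) but below it in Nsd2 Vil-KO replicate 2 (−0.12). They are highest in Nsd2 Vil-KO replicate 1 (0.56), where Car2 is below its mean (−0.69).

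The genes whose pattern over the 6 libraries was most like that of the leading members were found by the root mean square difference of centred log2(CPM + 1) among 13334 genes. For Car4 they were Mfsd4b3-ps (0.119), Ccdc28a (0.12) and Tmem53 (0.121), against a standard deviation of Car4 itself of 0.66. For Car1 they were Ces2b (0.344), Ckmt2 (0.39) and Enpep (0.409), against a standard deviation of 1.44. Car2 shared Ces2b (0.3), a carboxylesterase, followed by Pdzk1ip1 (0.341) and Slc2a4 (0.346), against a standard deviation of 1.21. These patterns were dominated by the libraries that stood apart, and Ces2b was at 22.2 CPM in Nsd2 f/f replicate 3 and 8.10 CPM in Nsd2 Vil-KO replicate 2 against 0.842 to 2.13 CPM in the other 4. Of the genes most like Car4, Mfsd4b3-ps was at 0.499 to 4.44 CPM and Tmem53 at 1.78 to 9.13 CPM. At such low levels the 1 added to CPM narrows differences between libraries.

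In a list of bicarbonate, proton and lactate transporters, 0 of 15 tested genes passed the screening criterion in either direction, with a median log2 fold change of −0.08. This list also holds the chloride cotransporter Slc12a2, which is counted among the crypt markers too, and Slc26a3, which is counted among the surface markers too. Over the 17 alternatives 0 to 5 genes of the transporter list passed and its median lay between −0.25 and 0.24. The log2 fold change was −0.52 for Slc26a3 (standard error 0.63), 0.49 for Slc9a3, the apical sodium and proton exchanger (standard error 0.36), and −1.14 for Atp12a, the colonic proton and potassium ATPase (standard error 0.77). Of the 21 surface markers 2 passed upward and 0 downward, with a median of −0.10, and 1 to 6 passed over the alternatives. These were Emp1 (log2 fold change 1.34, standard error 0.41), a membrane protein, and Slc51a (4.39, standard error 1.79), a bile acid exporter subunit whose 20.8 CPM in Nsd2 Vil-KO replicate 2 stood against at most 0.975 CPM elsewhere. Of the 14 crypt markers 1 passed downward, Reg4 (−1.60), a lectin of deep crypt secretory cells, and of the 11 goblet cell markers 1 passed downward, Clca1 (−1.64), a secreted mucus protease, with list medians of −0.11 and −0.52. Over the alternatives 0 to 7 goblet cell markers passed, and their median stayed between −0.73 and −0.40. Of 10 tested enteroendocrine and tuft markers Avil (2.13), an actin-binding protein of tuft cells, passed upward. Of the 7 epithelial markers and 6 posterior Hox genes 0 passed, with medians of 0.02 and −0.30.

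Markers of red blood cells and adipocytes, cell types that use carbonic anhydrases, were low. Red blood cells are rich in Car1 and Car2, and the summed CPM of 7 erythroid markers were 21.9, 1.48 and 8.0 in Nsd2 f/f and 4.19, 4.11 and 2.20 in Nsd2 Vil-KO. The part of red blood cells in the levels of Car1 and Car2 was not tested. The defining adipocyte genes Adipoq and Lep had 0 counts, and the sum of 7 adipocyte markers, 1.02 to 25.2 CPM, came mostly from Cidec. Of the erythroid, adipocyte, muscle, fibroblast, myeloid, lymphocyte and glial lists 0 tested genes passed the criterion, with medians of −1.45 (2 tested), 1.95 (1), −0.59 (7), −1.44 (7), −0.91 (9), −0.06 (8) and −0.69 (1). Without Nsd2 f/f replicate 1 the erythroid, fibroblast and myeloid medians were −0.054, −0.15 and 0.54. Of 3 tested endothelial markers Vwf passed upward and Pecam1 downward, and 0 passed with library size only or without any 1 of the Nsd2 f/f libraries. Myeloid and fibroblast markers varied widely, with summed CPM from 21.5 to 1005 and from 5.83 to 272, and their part in the member values was not tested.

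The other 6 carbonic anhydrase genes were barely detected. Car10 had 0 counts in all 6 libraries, Car5a 1 and Car6, the secreted salivary enzyme, 2. Car15 had 9, 9 and 0 counts in Nsd2 f/f and 14, 0 and 9 counts in Nsd2 Vil-KO, and shares exon bases with another gene on its strand. Car5b, a mitochondrial isozyme, had 56 counts in Nsd2 Vil-KO replicate 2 and 4 to 10 in each other library. Car11, which lacks activity, was the 1 tested, and its log2 fold change was 0.82 (standard error 0.77, exact permutation p = 0.4).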

How the data were processed

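RNA was measured in 6 libraries, 3 per genotype, grouped by the sample labels, which name the controls WT. The table deposited by the authors holds raw counts (whole reads for each Ensembl gene), with no normalisation or filter. The submitters' processing notes name HISAT2 and mm10, and the methods describe polyA selection and trimming. The labels name a TruSeq kit and the methods another, and the counting program is not given in the sources used here. The count test was edgeR 4.0.16 in R 4.3.3, using TMM factors, filterByExpr by genotype (14650 genes kept) and the robust quasi-likelihood test on all genes, with Benjamini-Hochberg adjustment over all of them. Standard errors were the log2 fold change divided by the root of F. Exact two-sided permutation tests over samples used log2(CPM + 1) for single genes. For the summed FPKM, the shares and the ratios they used the values without a log. Levels were compared within libraries by sign flips of log2(FPKM + 0.01). Exon lengths and loci came from GENCODE M21 on GRCm38 (99.5% of genes found). On simulated counts, 89.4% of 189 genes given a log2 change of 2 passed the screening criterion and 52.9% an adjusted p below 0.05 among 14278 tested, and 4.94% of unchanged genes passed the criterion. The members, the 18 gene lists and the tests were chosen with earlier results of these data known. Named genes were the members, Nsd2, Xist, the rest of the family, list genes past the criterion or among the 3 of highest mean CPM, and the 3 genes most like each of the 3 highest members. Other genes named here (Egln3, Vegfa, P4ha1, Ankrd37, Aqp8, Guca2a, Guca2b, Clca4a, Sox9, Slc9a3, Atp12a, Adipoq, Lep, and the overlapping genes Gm12454 and Aph1a) were chosen after their values were seen. There were 17 alternatives: normalisation, filter, model (DESeq2 1.42.0, limma 3.58.1, with quality weights where voom was used), robust estimation, a replicate block, Xist as a covariate, and libraries left out. Each of the 6 columns was used. Figures were drawn with matplotlib 3.10.9.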

Additional observations from a re-analysis of the deposited data

How the results depend on the processing

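The count of members past the screening criterion was 0 as reported and in 14 of 17 alternatives. It was 1 with the replicate block and with Xist as a covariate, both times Car12 (log2 fold change 0.98 and 1.01), and between 0 and 1 with each library left out, the 1 being Car8 without Nsd2 f/f replicate 1 (1.73). The deviations of same-numbered libraries from their genotype means correlated at 0.287, −0.376 and −0.174, and those of differently numbered libraries between −0.331 and 0.377. With means of only 3 libraries, these correlations cannot show whether the replicate numbers pair the libraries. With the block, 303 genes passed the criterion. The count of 482 genes became 861 without the filter, 1440 with limma-voom and library quality weights (voom with weights below, which changes model and weights together), 1145 with Xist as a covariate and 1646 without both libraries that held it, and lay between 323 and 769 with each library left out. The number of members higher in Nsd2 Vil-KO was 8 with voom with weights. With each library left out, the median of the members lay between −0.32 and 0.46, the log2 ratio of summed FPKM, Nsd2 Vil-KO to Nsd2 f/f, between −0.91 and 0.57 (main value −0.53), and 8 to 10 of the 10 members kept their place in the level order. Car8, Car9 and Car12 kept their direction in 17 of 17 alternatives (log2 fold changes of 0.042 to 1.73, 0.13 to 0.33 and 0.54 to 1.13). Car1 changed sign with voom with weights (0.22), the replicate block (0.32), Xist as a covariate (0.046) and without both libraries with Xist (0.63), and lay between −1.36 and 1.33 with each library left out, positive without Nsd2 f/f replicate 3. Car2 lay between −1.38 and 0.94, likewise positive without that library, and kept its direction in 16 of 17 alternatives, against 12 of 17 for Car1. Car4 changed sign with voom with weights (0.011) and without both libraries with Xist (0.13). Car7 changed sign with voom with weights (0.037) and lay between −0.54 and 0.077 with each library left out, and Car13 between −0.058 and 0.28, negative without Nsd2 Vil-KO replicate 2. Car3 changed sign with DESeq2 (−0.039), with limma on log2(CPM + 1) (−0.01) and in 4 of the 6 fits without 1 library (−0.32 to 0.46). The cause of these changes was not tested, except that fewer libraries or genes enter some fits. Car3, Car7 and Car14 had 0 to 18 counts per library.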
